A study of Oryza sativa with 12 samples.

Results

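The genes described here drive the plant cell division cycle and copy the genome during it: the A-, B- and D-type cyclins, their cyclin-dependent kinases (CDKs), the KRP inhibitors of those kinases, the origin recognition complex (ORC), the MCM helicase, replication protein A (RPA) and the sliding clamp PCNA. Members were found by name, from gene symbols and synonyms in the array's probe annotation. The rule uses no measured value, but this group of genes was picked with earlier results of these data known. The name rule found 57 probe sets of 46 genes among the 57258 rice probe sets of the array, of which the annotation ties 22436 to exactly 1 gene, for 17905 named genes in all. By class these were 3 A-type, 4 B-type and 9 D-type cyclin genes, 5 CDK genes, 4 KRP genes, 5 ORC genes, 8 MCM genes, 7 RPA genes and PCNA. The rule also asked for names starting with RNR (ribonucleotide reductase) and E2F, and 0 probe sets carried either. For another 8 genes whose names fit the rule the annotation links no probe set: CDKB1-1, CDKC-2, CYCA3-1, CYCB1-5, CYCD2-1, KRP2, KRP3 and ORC6. In the synonyms CYCB1-3 also carries the name CycB1-1 and ORC5 the name OsORC1, so CYCB1-1 and ORC1 mean here the genes with those current symbols.

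Rice (Oryza sativa) of 3 genotypes was profiled: 2 cultivars, named C bao and Jamaica, and their F1 hybrid. The title of the series concerns hybrid weakness, the poor growth of some hybrids of healthy parents. For each genotype 2 arrays measured leaf of plants 4 weeks old and 2 arrays measured root of plants 7 days old, which gave 12 arrays in 6 groups. No agent or treatment is named for any group, and the direction of the cross, the growth conditions and the part of the leaf taken are not given in the sources used here. Age changed with tissue in every genotype, so tissue and age cannot be told apart. The labels number the 2 arrays of a group as replicates without saying that they came from separate plants, so the p-values cover the spread between these arrays alone, which may be technical.

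A cell leaves its resting phase when D-type cyclins, joined to the kinase CDKA, phosphorylate the retinoblastoma-related protein and so release E2F transcription factors, whose targets include the ORC, MCM, RPA and PCNA genes. The origin recognition complex marks the start sites of replication and loads the ring-shaped MCM helicase. RPA then coats the opened single strands, and PCNA clamps the polymerases to the template. A-type cyclins act from the replication phase on, B-type cyclins and the plant-specific B-type CDKs act at entry into mitosis, and KRP proteins bind and block cyclin D and CDKA complexes. In a grass leaf these genes are active mainly at the leaf base and in the shoot apex, and in a root at the tip, so that a fully grown leaf blade holds few dividing cells. In RNA from whole organs, fewer dividing cells and less RNA per dividing cell cannot be told apart.

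Signals are MAS5 intensities scaled so that the trimmed mean of each array is 500. Because each probe set has its own brightness, signals are compared between arrays for 1 probe set and not between genes; the mean signal of probe sets served only to choose which to describe. Differences are given on the scale log2(signal + 16), which understates the change of dim probe sets, and counts of probe sets within or beyond a given fold are made on signal + 16 too. A probe set was tested when the mean of at least 1 group was above a signal of 32.4, and it is said to have passed the test, or to be higher or lower in a counted sense, when limma's p-value adjusted by Benjamini-Hochberg over all 42972 tested probe sets was under 0.05. Of the cell cycle and replication probe sets 53 were tested, covering 45 of the 46 genes. The 4 dim ones left out were both probe sets of MCM8, 1 of KRP6 and 1 of MCM9. Where a gene had several probe sets, as 9 did, the one of highest mean signal is described unless another is named.

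The F1 leaf group stood apart before any comparison was made. Its 2 arrays differed by more than 2-fold for 31 of the 53 probe sets, against 22.7% of all tested probe sets, and replicate 1 was the higher of the pair in all 31. In the other groups the arrays differed by more than 2-fold for 2 (C bao leaf, 12.6% of all), 13 (Jamaica leaf, 18.9%), 3 (C bao root, 12%), 0 (Jamaica root, 12.6%) and 0 (F1 root, 11.0%) of the 53. The median size of the log2 difference between replicates over the 45 genes was 1.45 in F1 leaf and lay between 0.18 and 0.48 in the other 5 groups. Results that use the F1 leaf arrays are therefore given with and without them. The tissue labels fitted the means of their markers. The mean log2 signal of 7 photosynthesis genes was 12.80 to 13.72 on the leaf arrays and 8.39 to 10.15 on the root arrays. That of 5 root genes was 6.05 to 6.81 on leaf and 9.81 to 10.42 on root arrays. Over both parents 6 of the 7 photosynthesis genes were higher in leaf and 0 lower. Of the 5 root genes 3 were lower in leaf and 1 was higher, with log2 differences from -9.76 to 0.69.

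**Figure D1:**
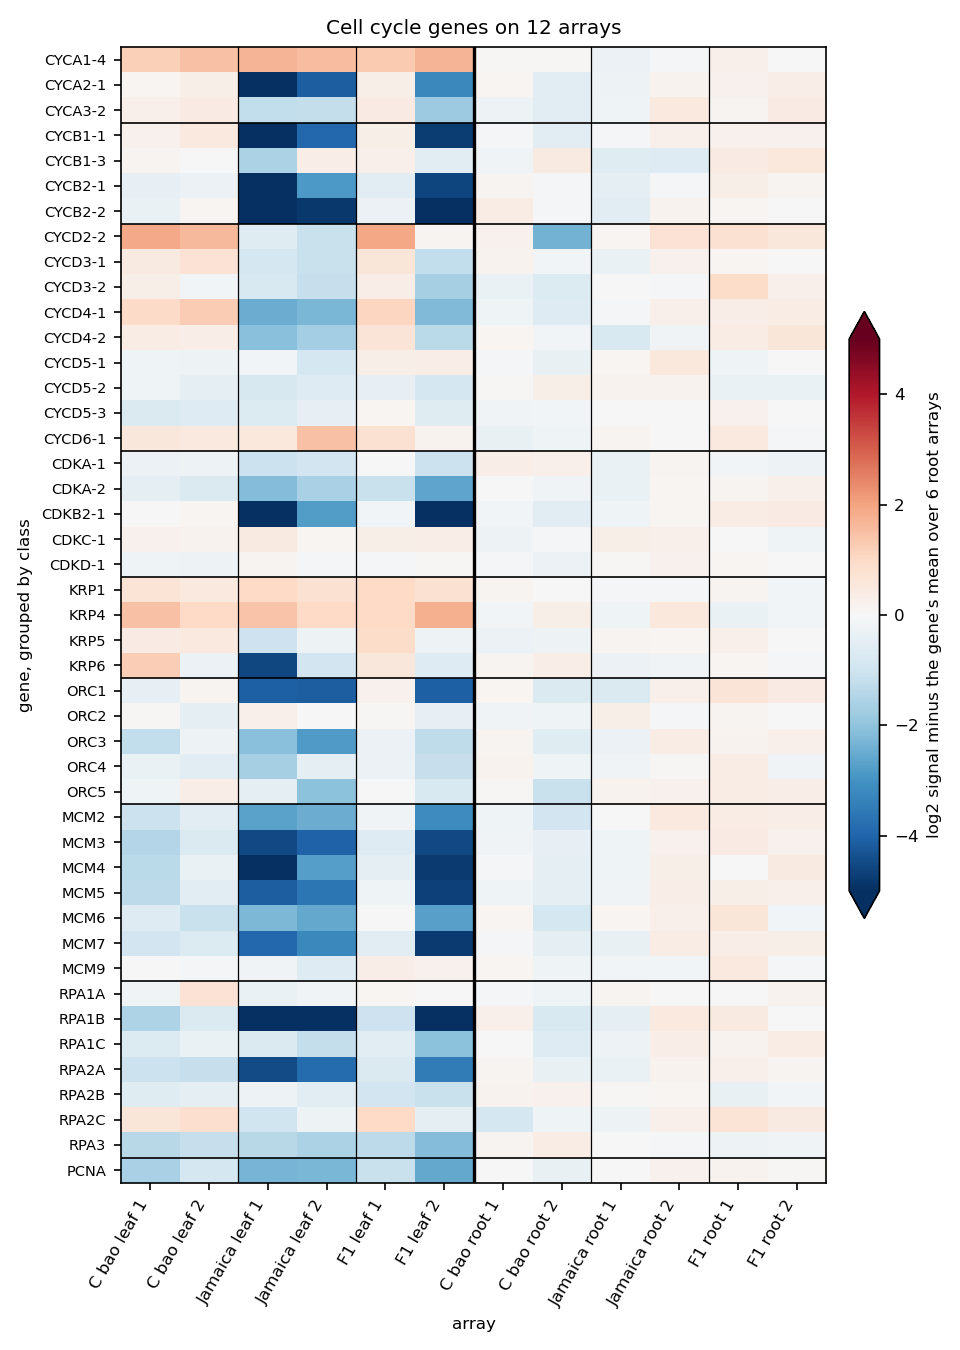
Signal of the 45 tested cell cycle and replication genes (rows, grouped by class with lines between classes) on the 12 arrays (columns, leaf then root). Colour is log2(signal + 16) minus the mean of the gene over its 6 root arrays, with the scale ending at -5 and 5. Most rows are pale across all root arrays, and many rows are dark blue in 3 columns, the 2 Jamaica leaf arrays and F1 leaf replicate 2.

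In leaf, many of the genes had far higher signal in C bao than in Jamaica. All 13 of the 53 probe sets that passed the test were higher in C bao (12 of the 45 genes), against 11.9% of all tested probe sets in either direction, of which 7.46% were higher in C bao and 4.4% lower. The median log2 difference of the 45 genes was 1.29, against -0.01 over all tested probe sets, and single genes ranged from -0.45 to 5.54. At an unadjusted p under 0.05 the count was 29 of 53, against 27.0% of all. Both C bao leaf arrays lay above both Jamaica leaf arrays for 32 of the 45 genes (37 of 53 probe sets, against 28.0% of all). They lay below them for 3 genes (4 probe sets, against 28.3%): CYCA1-4, CDKD-1 and KRP1. The remaining probe set was the second tested one of MCM9, a gene counted as above by its first. For 27 genes the C bao arrays were more than 2-fold higher without overlap (31 probe sets, against 13.2% of all), and for 12 genes more than 8-fold higher (13 probe sets, against 2.44%).

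These counts depended on how the error was estimated. The spread of each gene was pooled over all 6 groups, and the wide F1 leaf pair entered it although the parental difference does not use that pair. With both F1 leaf arrays left out, 29 of the 53 probe sets passed (26 genes, all higher in C bao), against 19.4% of all tested probe sets in either direction and 12% higher, and these included the 13. With the 4 parental leaf arrays fitted alone, an alternative chosen after seeing the data, 21 passed, against 12% of all. With the 6 leaf arrays fitted alone none passed, against 3.23% of all. Leaving out C bao leaf replicate 1, C bao leaf replicate 2 or Jamaica leaf replicate 1 left 1 probe set past the test, and leaving out any 1 root array left 7 or 8. Leaving out Jamaica leaf replicate 2 gave 12, of which 9 were among the 13.

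**Figure D2:**
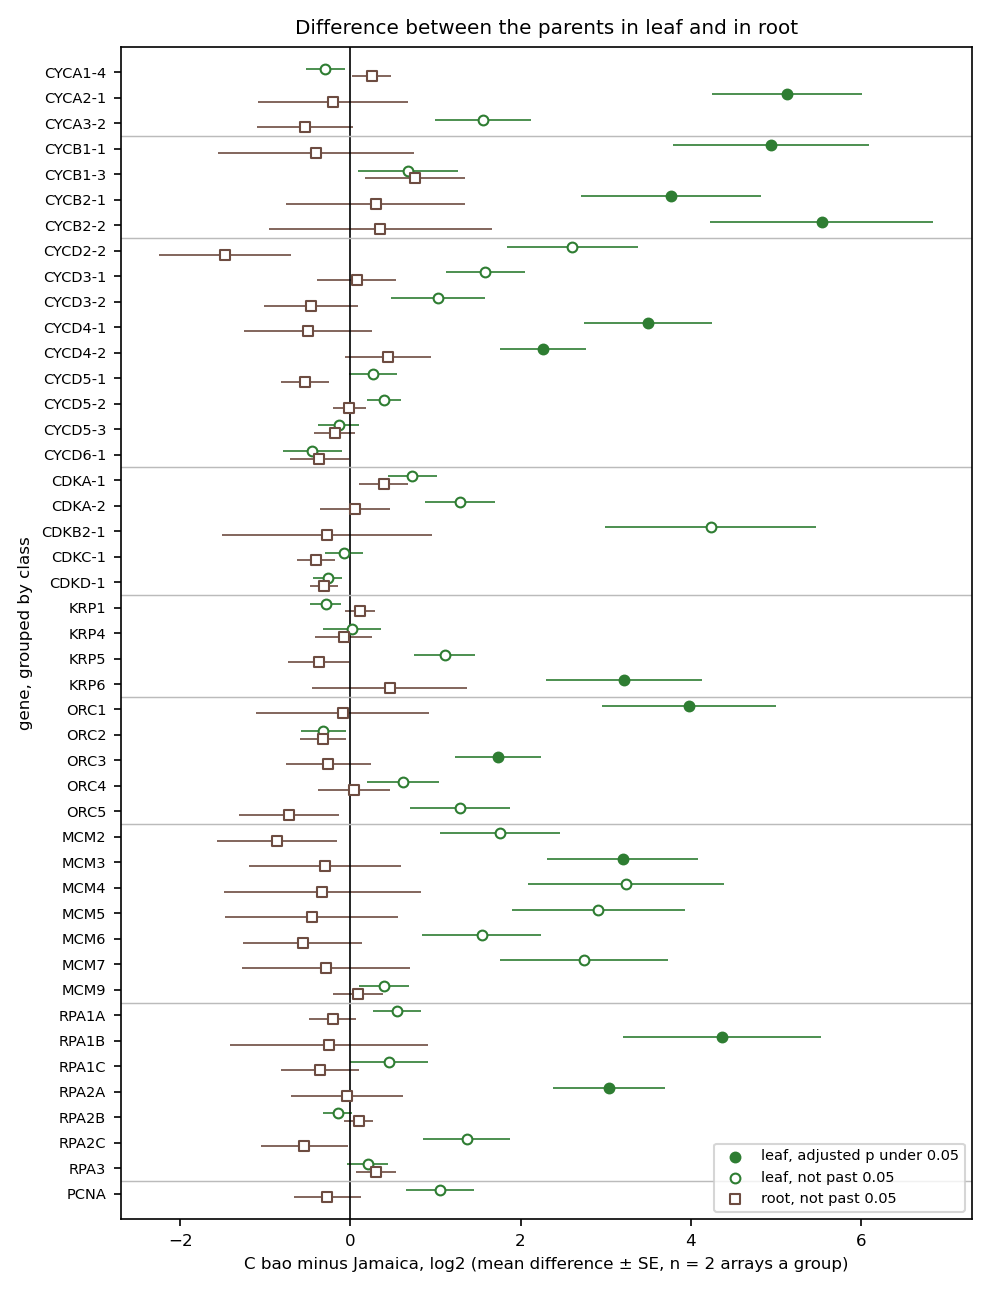
Difference between C bao and Jamaica in leaf (circles) and in root (squares) for each of the 45 genes, as log2 of signal + 16 with its standard error from limma. Filled symbols mark an adjusted p under 0.05. The leaf values reach 5.54 and 12 are filled, while the root values lie between -1.47 and 0.77 and none is filled.

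The mitotic cyclins showed the widest gap. CYCB1-1, which partners B-type CDKs at entry into mitosis, gave signals of 2319.8 and 2804 in C bao leaf, 36.9 and 115 in Jamaica leaf and 2410.3 and 57.4 in F1 leaf. Its root signals were 1894 and 1330.1 in C bao, 1866 and 2367 in Jamaica and 2322 and 2308 in F1. C bao leaf thus lay above C bao root without overlap, and within or above the range of all 6 root arrays. Jamaica leaf lay far below C bao leaf without overlap. The F1 leaf arrays lay 1 near each of these 2 leaf levels. The leaf difference between the parents was 4.95 ± 1.15 (log2, SE, 2 arrays a group, adjusted p = 0.0209 by limma), and its SE was 0.352 without the F1 leaf arrays.

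CYCB2-2, a mitotic cyclin of the second B-type group, had the largest leaf difference of the 45 genes. It gave 1494 and 1999 in C bao leaf, 5.13 and 50.3 in Jamaica leaf, 1539 and 14.8 in F1 leaf, 2422 and 1826 in C bao root, 1259.8 and 2142 in Jamaica root and 1999 and 1894 in F1 root. The Jamaica leaf arrays and F1 leaf replicate 2 were the only low ones among the 12. The difference was 5.54 ± 1.31 (adjusted p = 0.0221 by limma). Its other probe set, some of whose probes match related sequences, differed by 3.95 (adjusted p = 0.0535, and 4.78e-05 without the F1 leaf arrays). CYCB2-1 also passed, with 3.77 ± 1.06 (adjusted p = 0.0434). CYCB1-3, which was dim on all 12 arrays with a highest signal of 83.5, did not (0.68, adjusted p = 0.508), so 3 of the 4 B-type genes were higher in C bao leaf. Over the 4 genes the mean log2 signal was 9.43 and 9.59 in C bao leaf, 4.85 and 6.69 in Jamaica leaf, 9.44 and 5.56 in F1 leaf, and 9.10 to 9.78 on the root arrays.

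Of the 3 A-type cyclins, which act in the replication phase and up to mitosis, 1 passed. CYCA2-1 gave 1081 and 1254 in C bao leaf, 3.32 and 42.6 in Jamaica leaf, 1253 and 94.8 in F1 leaf, 1081 and 679 in C bao root, 842 and 1161 in Jamaica root and 1173 and 1280.4 in F1 root. The Jamaica leaf pair and F1 leaf replicate 2 lay below every other array. The difference was 5.13 ± 0.880 (adjusted p = 0.00454 by limma). CYCA3-2 differed by 1.56 (adjusted p = 0.103, and 0.0034 without the F1 leaf arrays). CYCA1-4 went the other way by -0.29 (adjusted p = 0.46), and its 6 leaf signals, 595 to 854, all exceeded its 6 root signals, 204 to 303.

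The D-type cyclins, which respond to growth signals and act before replication, were mixed. CYCD4-1 gave 1521 and 1881 in C bao leaf, 125 and 147 in Jamaica leaf, 1665 and 154 in F1 leaf, 671 and 498 in C bao root, 725 and 935 in Jamaica root and 986 and 1000.5 in F1 root. The C bao leaf pair and F1 leaf replicate 1 lay above every root array, and the other 3 leaf arrays lay below every root array. The parental leaf difference was 3.50 ± 0.753 (adjusted p = 0.0149 by limma). CYCD4-2 passed as well, with 2.26 ± 0.507 (adjusted p = 0.0176). CYCD2-2 (2.61) and CYCD3-1 (1.59) had adjusted p-values of 0.0524 and 0.0504 that came to 0.022 and 0.0009 without the F1 leaf arrays. CYCD5-2, described as the probe set of highest mean signal in its class, gave 1119 and 965 in C bao leaf, 751 and 824 in Jamaica leaf, 972 and 713 in F1 leaf, 1351 and 1597 in C bao root, 1492 and 1472 in Jamaica root and 1029 and 1022 in F1 root. Its parental leaf difference was 0.39 ± 0.196 (adjusted p = 0.23). The second probe set of CYCD5-2 did not follow the first: it gave 307 and 229 in C bao leaf against 6.54 and 52.7 in Jamaica leaf, a difference of 2.84 (adjusted p = 0.0518), so the 2 probe sets of this gene disagree on size. CYCD5-1, CYCD5-3 and CYCD6-1 differed by 0.27, -0.14 and -0.45. In all, 2 of the 9 D-type genes passed, and 4 without the F1 leaf arrays.

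Among the kinases, the mitotic CDKB2-1 moved with the mitotic cyclins. Its signals were 1306 and 1419 in C bao leaf, 11.98 and 176 in Jamaica leaf, 1214 and 25.9 in F1 leaf, 1221 and 903 in C bao root, 1143 and 1417 in Jamaica root and 1731 and 1756 in F1 root. The Jamaica leaf arrays and F1 leaf replicate 2 were again below all the others, but the difference of 4.23 ± 1.24 narrowly missed the threshold (adjusted p = 0.0508 by limma) and passed without the F1 leaf arrays (adjusted p = 0.0011). CDKA-1, the kinase that acts throughout the cycle, gave 2743 and 2829.6 in C bao leaf, 1627 and 1727 in Jamaica leaf and 3348 and 1598 in F1 leaf. Its roots gave 4237 and 4085 in C bao, 2673 and 3751 in Jamaica and 3116 and 2864 in F1. The parental leaf arrays did not overlap, yet the difference of 0.73 ± 0.288 did not pass (adjusted p = 0.133, and 0.0105 without the F1 leaf arrays). That probe set shares probes with related sequences. The other probe set of CDKA-1 was dim and went the other way, by -0.66 (adjusted p = 0.547 by limma). It gave 1.71 and 61.4 in C bao leaf and 37.2 and 48.0 in Jamaica leaf. CDKA-2 was measured by 3 probe sets with differences of 1.29, 0.87 and 2.25, and the last of these passed (adjusted p = 0.0271). CDKC-1, a kinase of RNA polymerase II, and CDKD-1, a CDK-activating kinase, differed by -0.08 and -0.27. CDKD-1 was among the 4 genes whose 12 values of signal + 16 all lay within 2-fold (10.1% of all probe sets), with signals between 1639 and 2336, beside CYCD5-3, CDKC-1 and ORC2.

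The KRP inhibitors did not share 1 direction. KRP1, whose probe set has the highest mean signal in the class, gave 2017 and 1783 in C bao leaf, 2515 and 2148 in Jamaica leaf, 2506 and 2150.1 in F1 leaf, 1378 and 1232 in C bao root, 1188 and 1212 in Jamaica root and 1387 and 1128 in F1 root. Here the Jamaica leaf arrays were slightly above the C bao ones, by a log2 difference of -0.29 ± 0.178 (C bao minus Jamaica, adjusted p = 0.334 by limma). KRP6 gave 1431 and 492 in C bao leaf, 10.4 and 308 in Jamaica leaf, 896 and 383 in F1 leaf, 659 and 765 in C bao root, 493 and 530.1 in Jamaica root and 652 and 563 in F1 root. Both parental pairs were wide, and the difference of 3.21 ± 0.913 passed (adjusted p = 0.0457). KRP4 differed by 0.02 and KRP5 by 1.11 (adjusted p = 0.0708), so 1 of 4 passed. The second tested probe set of KRP4 was dim and differed by 1.02 (adjusted p = 0.18 by limma). It gave 38.5 and 26.9 in C bao leaf and 12.5 and 4.02 in Jamaica leaf.

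Of the 5 genes for the origin recognition complex 2 passed. ORC1, its largest subunit, gave 228 and 338 in C bao leaf, 2.92 and 2.31 in Jamaica leaf and 353 and 2.92 in F1 leaf. In root it gave 327 and 176 in C bao, 179.9 and 366 in Jamaica and 486 and 414 in F1. The 3 low arrays were below 3, and the other 9 were at 176 or above. The parental leaf difference was 3.98 ± 1.02 (adjusted p = 0.0308 by limma). ORC3 gave 69.7 and 154 in C bao leaf and 30.8 and 11.97 in Jamaica leaf, a difference of 1.74 ± 0.503 (adjusted p = 0.0488). ORC2 gave 453 and 315 in C bao leaf, 516 and 437 in Jamaica leaf, 458 and 326 in F1 leaf, 385 and 367 in C bao root, 537 and 419 in Jamaica root and 484 and 427 in F1 root. The parental leaf arrays overlapped, with a difference of -0.32 (adjusted p = 0.495). ORC4 and ORC5 differed by 0.62 and 1.29 and did not pass.

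The 6 genes MCM2 to MCM7 encode the 6 subunits of the replicative helicase ring. MCM2 gave 479 and 673 in C bao leaf, 145 and 169 in Jamaica leaf and 899 and 102 in F1 leaf. Its roots gave 860.0 and 511 in C bao, 1030.1 and 1441 in Jamaica and 1299 and 1273 in F1. MCM4, with the largest leaf difference of the class, gave 312 and 635 in C bao leaf, 3.83 and 104 in Jamaica leaf, 590.2 and 13.98 in F1 leaf, 777 and 566 in C bao root, 702 and 996 in Jamaica root and 812 and 1107 in F1 root. For both genes the C bao leaf arrays lay above the Jamaica ones without overlap, and F1 leaf replicate 2 was below or among the Jamaica values. Their differences of 1.76 ± 0.703 and 3.24 ± 1.15 did not pass (adjusted p = 0.136 and 0.097 by limma), and both passed without the F1 leaf arrays (0.00136 and 0.00681). MCM3 passed in both fits, with 390.3 and 669.6 in C bao leaf against 32.6 and 51.7 in Jamaica leaf and 706 and 33.7 in F1 leaf, a difference of 3.20 ± 0.890 (adjusted p = 0.0424). MCM5, MCM6 and MCM7 differed by 2.91, 1.54 and 2.75 and passed without the F1 leaf arrays but not with them. MCM9, which is no part of this ring, gave 220.2 and 153 in Jamaica leaf against 256 and 239 in C bao leaf and differed by 0.40 (adjusted p = 0.425). That probe set shares probes with related sequences, and the second tested probe set of MCM9 went the other way, by -0.25. The count for the class was 1 of the 7 tested genes, and 6 of 7 without the F1 leaf arrays. The mean log2 signal of MCM2 to MCM7 was 8.41 and 8.86 in C bao leaf, 5.72 and 6.42 in Jamaica leaf, 9.20 and 5.44 in F1 leaf and 8.90 to 9.86 on the root arrays.

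RPA is a complex of a large, a middle and a small subunit, and rice has several genes for the first and the middle one. RPA1B, a large subunit, gave 394 and 693 in C bao leaf, 7.05 and 13.5 in Jamaica leaf, 554 and 2.01 in F1 leaf, 1400.5 and 687 in C bao root, 827 and 1656 in Jamaica root and 1605 and 1174 in F1 root. RPA2A, a middle subunit, gave 589 and 556 in C bao leaf, 41.6 and 73.2 in Jamaica leaf, 746 and 95.9 in F1 leaf, and 975 to 1509 in root. Both were higher in C bao leaf, by 4.37 ± 1.16 (adjusted p = 0.0359 by limma) and 3.04 ± 0.661 (adjusted p = 0.0156). RPA3, the small subunit, gave 1632 and 1930.4 in C bao leaf, 1642 and 1447 in Jamaica leaf and 1729 and 959 in F1 leaf. In root it gave 4808 and 5556 in C bao, 4216 and 4162 in Jamaica and 3627 and 3849 in F1. The parental leaf arrays overlapped and differed by 0.20 ± 0.240 (adjusted p = 0.646), while every root array lay above every leaf array. The other large-subunit genes, RPA1A and RPA1C, differed by 0.55 and 0.46, and the other middle-subunit genes, RPA2B and RPA2C, by -0.15 and 1.37. None of these 4 passed with all 12 arrays, and RPA2C, with 133 and 158 in C bao leaf against 31.9 and 64.9 in Jamaica leaf, passed without the F1 leaf arrays (adjusted p = 0.0434). The count for the class was 2 of 7 genes, and 3 of 7 without the F1 leaf arrays. Differences between paralogs were not tested.

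PCNA gave 959 and 1642 in C bao leaf, 593 and 599 in Jamaica leaf and 1382 and 494 in F1 leaf. Its root signals were 2978 and 2328 in C bao, 2926 and 3455 in Jamaica and 3354 and 3107 in F1. C bao leaf was above Jamaica leaf without overlap, by 1.05 ± 0.396, which did not pass (adjusted p = 0.114 by limma, and 0.00962 without the F1 leaf arrays). All 6 root arrays lay above all leaf arrays.

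**Figure D3:**
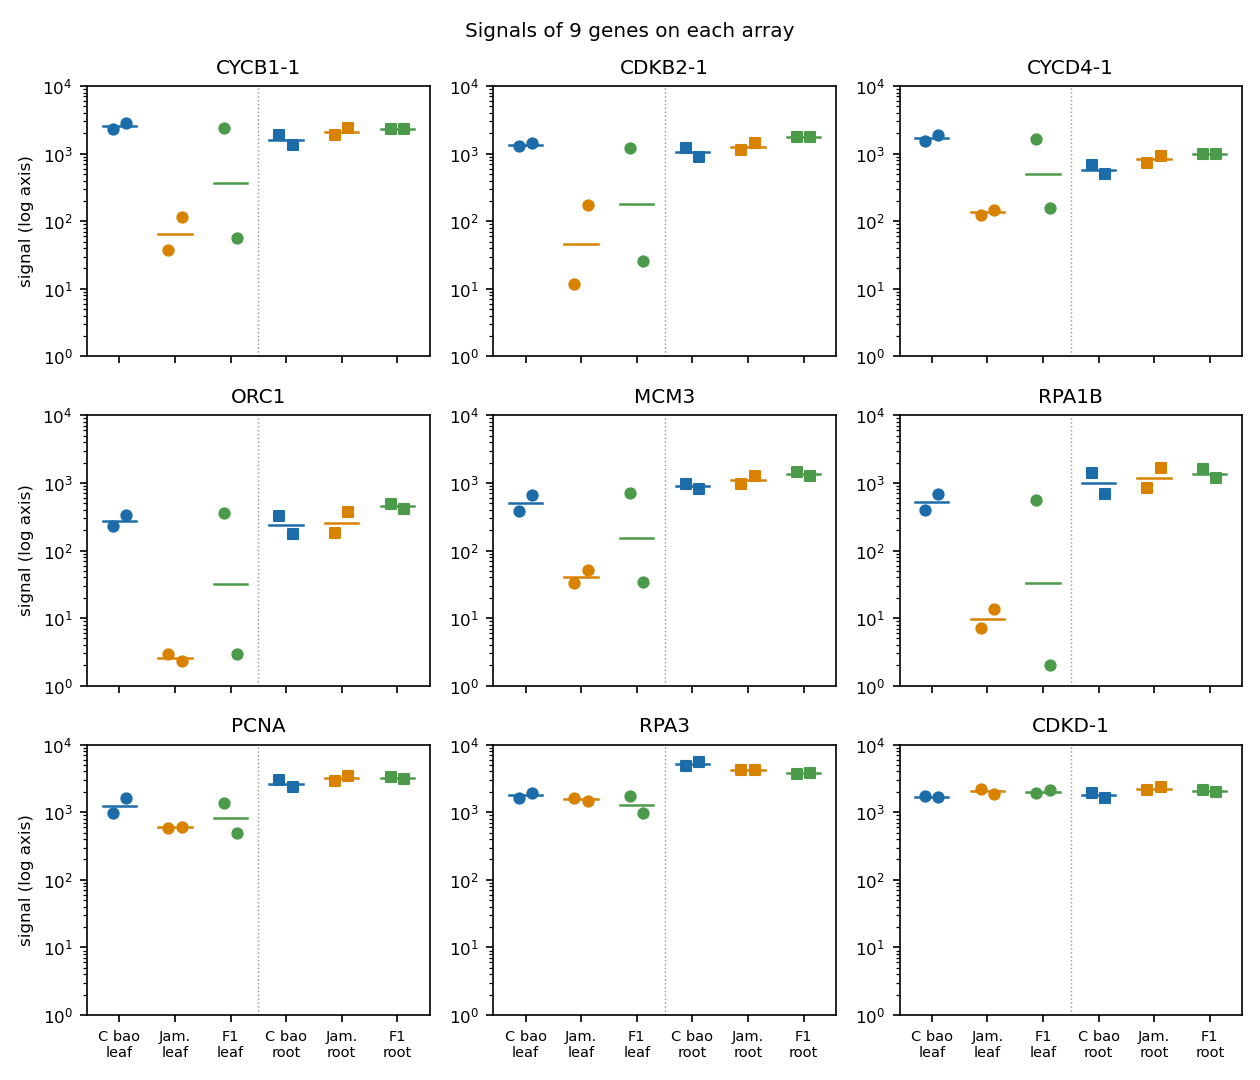
Signal of 9 genes on each array, on a log axis, for leaf (circles) and root (squares) of C bao, Jamaica and F1. Points are arrays, with replicate 1 to the left, and lines are geometric means of the pair. CYCB1-1, CDKB2-1, CYCD4-1, ORC1, MCM3, RPA1B and PCNA are low in Jamaica leaf and in F1 leaf replicate 2. RPA3 is low in F1 leaf replicate 2 but not in Jamaica leaf, and CDKD-1 in neither.

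Markers of growing tissue were higher in C bao leaf together with these genes. Of 10 growth-regulating factor (GRF) genes, transcription factors of the dividing and expanding leaf base, 8 passed as higher in C bao leaf, among them GRF6 (4.36, adjusted p = 0.0419 by limma) and GRF7 (4.37, adjusted p = 0.0133). The 2 that did not pass were GRF11 and GRF12. The summed signal of all 10 GRF genes, with the 2 that did not pass included, was 9619.9 and 11509.8 in C bao leaf and 4488 and 4889 in Jamaica leaf. It was 10678 and 5375 in F1 leaf and 8741 to 11858 in root. Of 6 KNOX genes, which mark the shoot apex and stem, OSH1 (3.94, adjusted p = 0.00114) and OSH71 (2.03, adjusted p = 0.00292) were higher in C bao leaf. OSH1 gave 501 and 358 in C bao leaf, 33.6 and 0.5 in Jamaica leaf, 6.33 and 14.7 in F1 leaf and at most 12.5 in root, so it was near the bottom of the scale in both F1 leaf arrays. The mean log2 signal of the KNOX genes was 7.77 and 7.72 in C bao leaf, 6.34 and 6.44 in Jamaica leaf and 6.67 and 6.06 in F1 leaf. The photosynthesis genes had 1 of 7 lower in C bao leaf and none higher, with mean log2 signals of 12.88 and 13.26 in C bao leaf and 13.72 and 13.65 in Jamaica leaf. The amount of apex or leaf base in each sample is not stated in the labels, and its part in the result was not tested.

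**Figure D4:**
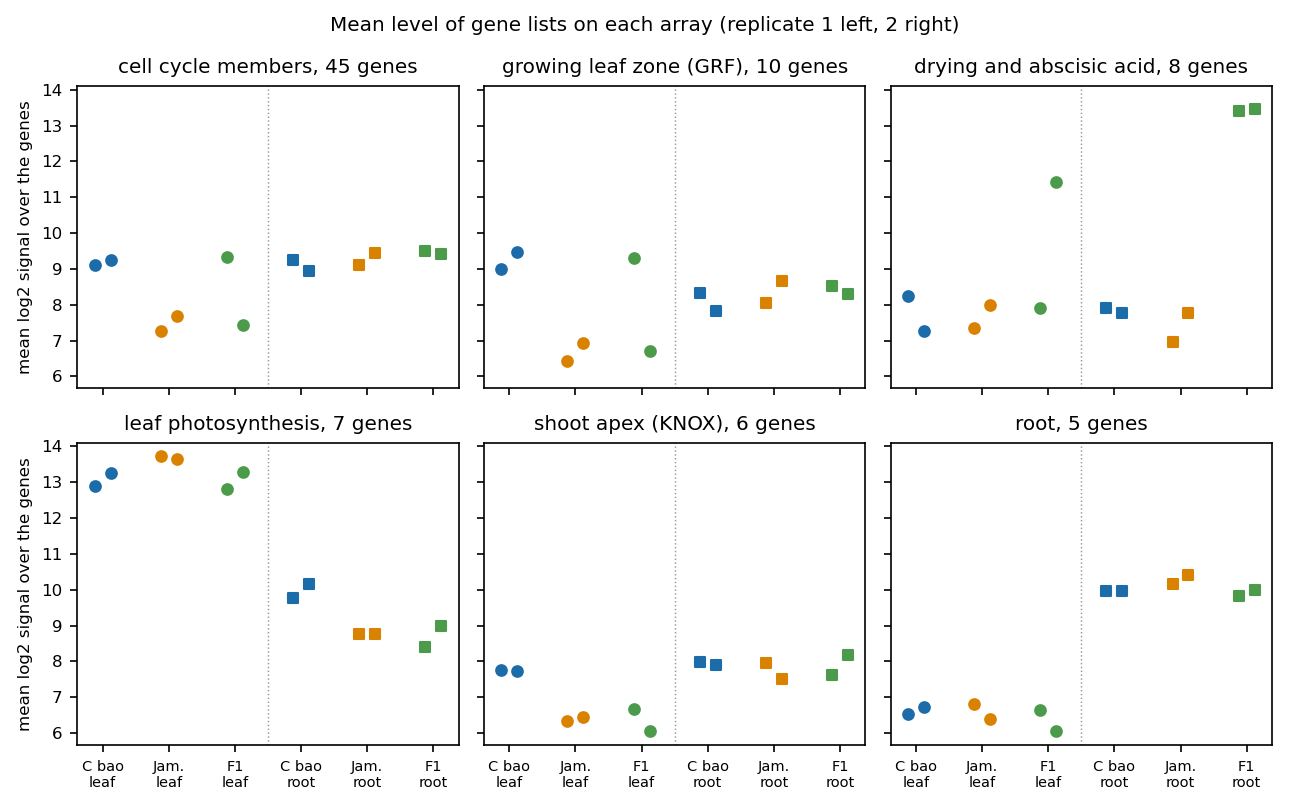
Mean log2(signal + 16) on each array for the 45 cell cycle and replication genes and for the lists of growing leaf zone (GRF), drying and abscisic acid, photosynthesis, shoot apex (KNOX) and root genes. The cell cycle genes and the GRF genes are both low in the 2 Jamaica leaf arrays and F1 leaf replicate 2, and the drying genes are high in F1 leaf replicate 2 and both F1 root arrays.

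In root the parents were close. None of the 53 probe sets passed, against 4.69% of all tested probe sets. At an unadjusted p under 0.05 the count was also 0, against 16.3% of all. The wide F1 leaf pair entered the pooled spread here too and raised the SE of genes such as MCM2 (0.703, and 0.276 without that pair). Without the F1 leaf arrays 0 passed, against 6.59% of all, and 3 did at an unadjusted p under 0.05, against 20.1%. The median log2 difference of C bao minus Jamaica over the 45 genes was -0.26, against -0.03 over all probe sets. It ranged from -1.47 for CYCD2-2, which gave 97.7 and 3.12 on the C bao root arrays and 87.7 and 145 on the Jamaica ones, to 0.77 for CYCB1-3. Both C bao root arrays lay above both Jamaica ones for 8 probe sets (24.1% of all) and below them for 14 (27.4%). Across all 6 root arrays signal + 16 stayed within 2-fold for 33 of the 45 genes (38 of 53 probe sets, against 42.0% of all), whereas across the 6 leaf arrays it did for 11 genes (13 of 53 probe sets, against 33.1%). Those 11 were CYCA1-4, CYCD5-2, CYCD5-3, CDKC-1, CDKD-1, KRP1, KRP4, ORC2, MCM9, RPA2B and RPA3. With the 6 root arrays fitted alone, MCM2 was lower in C bao root by a log2 difference of -0.86 ± 0.243 (adjusted p = 0.0482 by limma), the 1 call among 53, against 11.6% of all.

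Between the tissues, PCNA and most of the MCM and RPA genes stood higher in root, and a few regulators higher in leaf. Over the mean of both parents 26 of the 53 probe sets passed, 4 higher and 22 lower in leaf, against 42.0% of all tested probe sets, of which 20.9% were higher and 21.0% lower. By gene, 4 of 45 were higher in leaf and 19 lower. The median log2 difference of leaf minus root was -0.60, against 0.03 over all, with a range from -3.20 to 1.54. Without the F1 leaf arrays the counts were 4 and 31 of 53, against 22.5% and 23.9% of all, or 46.4% in either direction. Leaving out C bao leaf replicate 1, Jamaica leaf replicate 1, C bao root replicate 1 or Jamaica root replicate 2 left 17, 16, 16 and 15 probe sets past the test.

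The helicase, the single-strand binding complex and the clamp gave most of the genes that were lower in leaf. In the MCM class 6 of 7 genes passed, led by MCM3 with -2.54 ± 0.630 (adjusted p = 0.00745 by limma). RPA had 4 of 7, among them RPA1B with -3.20 (adjusted p = 0.00914), RPA2A with -2.53 (adjusted p = 0.0012) and RPA3 with -1.48 (adjusted p = 3.68e-05). PCNA was lower in leaf by -1.72 ± 0.280 (adjusted p = 0.000499). Only 1 of the 5 ORC genes passed as lower in leaf, ORC3 with -1.50 (adjusted p = 0.00572). Of the B-type cyclins 2 of 4 were lower in leaf, CYCB2-1 and CYCB2-2, and of the CDKs CDKA-1 and CDKA-2. The A-type cyclin CYCA2-1 was lower in leaf too (-2.23, adjusted p = 0.0139 by limma). So were the D-type cyclins CYCD5-2 (-0.70, adjusted p = 0.00197) and CYCD5-3 (-0.56, adjusted p = 0.0217). The 4 genes higher in leaf were the A-type cyclin CYCA1-4 (1.54, adjusted p = 1.88e-05), the D-type cyclin CYCD6-1 (0.86, adjusted p = 0.0153) and the inhibitors KRP1 (0.74, adjusted p = 0.000683) and KRP4 (1.11, adjusted p = 0.00337). KRP4 gave 918 to 1618 on the leaf arrays and 359 to 659 on the root arrays without overlap.

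That average over the parents hid a contrast between them. In Jamaica both leaf arrays lay below both root arrays for 36 of the 45 genes (41 of 53 probe sets, against 34.8% of all) and above them for 4 (4 probe sets, against 32.7%), with a median log2 difference of -1.35. In C bao the leaf lay below the root for 13 genes (17 probe sets, against 30.9% of all) and above it for 15 (16 probe sets, against 35.9%), with a median of -0.02. The test of that contrast, the tissue difference in C bao minus that in Jamaica, had 1 of 53 probe sets past the threshold, against 3.13% of all. This was CYCA2-1, with 5.33 ± 1.24 (adjusted p = 0.0474 by limma). Its call was lost when C bao leaf replicate 1 or 2, Jamaica leaf replicate 1 or any 1 root array was left out. At an unadjusted p under 0.05 the count was 24, against 20.6%. Without the F1 leaf arrays 25 of the 53 passed (22 genes, all with a positive difference), against 7.22% of all with a positive difference and 11.2% in either direction. The median over the 45 genes was 1.51, against 0.06 over all probe sets, and under quantile scaling these were 1.22 and -0.07.

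The F1 hybrid is set against the mean of its parents, the mid-parent. In leaf 0 of the 53 probe sets passed, against 1.21% of all tested probe sets, and 2 did at an unadjusted p under 0.05, against 12.4% of all. These were CYCD5-1 (0.70, unadjusted p = 0.0161) and RPA2B (-0.57, unadjusted p = 0.0028), which gave 881 and 794 in F1 leaf against 1124 to 1439 in the parental leaves. The median log2 difference over the 45 genes was 0.06. That mean described neither array of the pair for many of the genes.

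F1 leaf replicate 1 was more than 2-fold above replicate 2 for 27 of the 45 genes (31 of 53 probe sets, against 13.1% of all) and more than 2-fold below it for 0 (9.57% of all). It was more than 8-fold above for 12 genes (14 probe sets, against 1.35%). The largest log2 gap between the 2 arrays was that of CYCB2-2, at 5.66, followed by CYCB1-1 (5.05), RPA1B (4.98), CDKB2-1 (4.88), MCM5 (4.46), MCM4 (4.34), ORC1 (4.29) and MCM7 (4.25). PCNA had a gap of 1.45, equal to the median of the genes. The lowest value was that of KRP4, at -0.80.

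The genes that split the F1 leaf pair were largely those that separated the parents. Of the 31 probe sets with C bao leaf more than 2-fold above Jamaica leaf, 28 had F1 leaf replicate 1 more than 2-fold above replicate 2, against 45.6% of all 5686 probe sets with that parental difference. Replicate 1 was nearer to C bao for 30 of the 31 (83.5% of the 5686) and replicate 2 for 2 of the 31 (41.3%). Both statements, replicate 1 nearer C bao and replicate 2 nearer Jamaica, held for 28 of the 31, against 48.4%. F1 leaf replicate 1 was above all 4 parental leaf arrays for 17 genes (18 probe sets, against 18.3%), and replicate 2 was below all 4 for 16 genes (19 probe sets, against 22.1%). Both F1 leaf arrays were above all parental ones for CYCD5-1 and MCM9 (6.09% of all) and below them for RPA2B (7.19%).

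**Figure D5:**
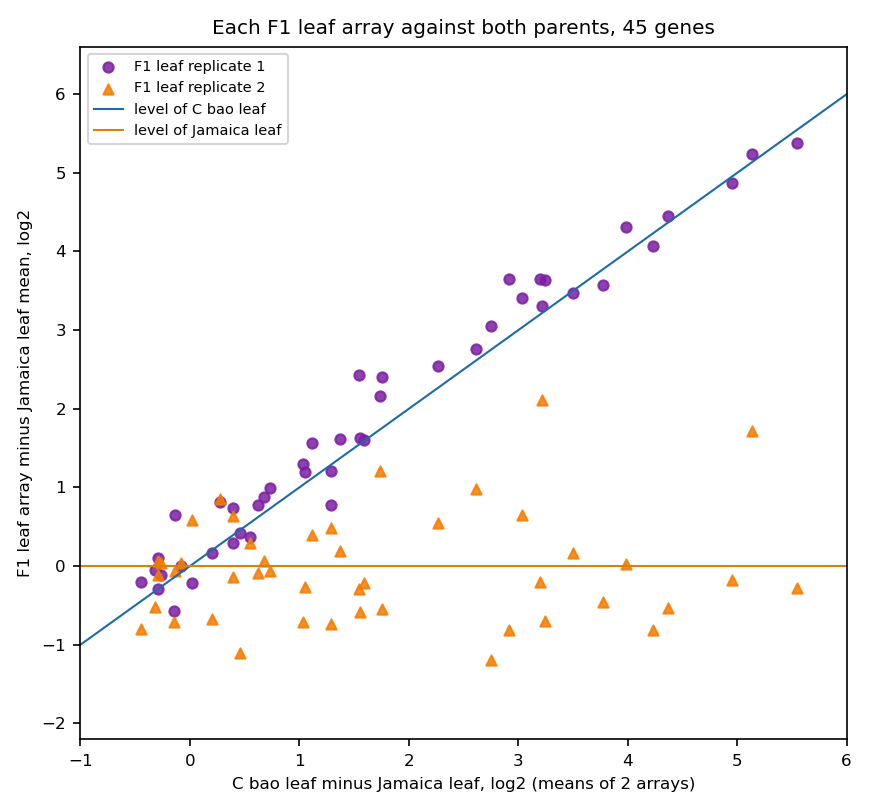
Each F1 leaf array minus the Jamaica leaf mean, plotted against C bao leaf minus Jamaica leaf, in log2 of signal + 16, for the 45 genes. The diagonal marks the C bao level and the horizontal line at 0 the Jamaica level. Among the 27 genes with C bao leaf more than 2-fold above Jamaica leaf, replicate 1 is nearer to the C bao level for all 27 and replicate 2 for 2.

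Which F1 leaf array was kept decided the sign of the result. With replicate 1 left out, 15 of 54 tested probe sets passed and all were lower than the mid-parent, against 3.15% of all lower and 1.91% higher. Among them were CYCB2-2 (-3.05), CDKB2-1 (-2.92), RPA1B (-2.72), CYCB1-1 (-2.65), MCM7 (-2.57), MCM5 (-2.27) and MCM3 (-1.81). With replicate 2 left out, 13 of 54 passed and all were higher, against 2.7% of all higher and 0.937% lower, among them CYCA2-1 (2.67), CYCB1-1 (2.39), ORC1 (2.32), RPA1B (2.26), MCM5 (2.19) and MCM3 (2.05). In either fit the lone F1 leaf array was assumed to vary like the other groups. The median over the 45 genes was -0.64 without replicate 1 and 0.80 without replicate 2.

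At probe sets with a large parental difference in both tissues, both F1 leaf arrays lay between the parents by their medians. Positions were taken on linear signal, on a scale where the Jamaica mean is 0 and the C bao mean is 1. On the log2 scale used elsewhere the same values lie nearer to the higher parent. In 196 probe sets C bao was far above Jamaica in both tissues (log2 difference over 3). Their median position was 0.55 in replicate 1 and 0.53 in replicate 2. Among 95 probe sets far higher in Jamaica the medians were 0.46 and 0.51. The F1 root arrays lay at 0.64 and 0.65 for the first group and at 0.55 and 0.63 for the second.

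Other lists moved with the split of the F1 leaf pair. The growth-regulating factors were low in replicate 2, with a mean log2 signal of 9.29 in replicate 1 and 6.72 in replicate 2. The 8 drying and abscisic acid genes, late-embryogenesis and dehydrin proteins of dry cells, ran the other way, at 7.91 and 11.42 (summed signal 7839 and 59801), against 7.26 to 8.24 on the 4 parental leaf arrays. The 3 senescence genes gave 11.06 and 11.91. The KNOX genes were low in both F1 leaf arrays, so they did not follow the cell cycle genes there. The part of growth stage, of sampled leaf zone and of drying in the F1 leaf result was not tested.

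In F1 root, no cell cycle or replication probe set passed against the mid-parent (0 of 53, against 5.05% of all). At an unadjusted p under 0.05, 2 did, against 18.3%: CYCD5-2 (-0.52 ± 0.170) and RPA2B (-0.38 ± 0.147). The pooled spread again held the wide F1 leaf pair, and the SE of CYCB1-1 was 0.999 with it and 0.305 without. Without the F1 leaf arrays 1 passed, against 8.07% of all, and 8 did at an unadjusted p under 0.05, against 22.5%. The median log2 difference over the 45 genes was 0.31, against 0.12 over all probe sets. Under median centring of each array, which placed the median of all probe sets at -0.13, that of the genes was 0.06, and under quantile scaling they were -0.01 and 0.21. The genes were thus about 0.2 above the median of all probe sets under each scaling. The 38 of 45 genes above 0 became 26 under median centring and 31 under quantile scaling. Single genes ranged from -0.52 to 0.99, the last for CYCD2-2.

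For 9 genes the F1 root pair was higher than each of the 4 parental root arrays. By probe set that was 10 of 53, or 18.9%, no more than the share of 18.9% over all probe sets. The 9 genes were CYCA2-1, CYCD3-2, CYCD4-1, CYCD4-2, CDKA-2, CDKB2-1, ORC1, ORC5 and RPA2C. The pair was lower than each of the 4 for CYCD5-2, RPA2B and RPA3 (11.1% of all). CDKB2-1, for instance, had F1 root signals of 1731 and 1756 against 903 to 1417 in the parental roots, a difference of 0.59 from the mid-parent. That difference had an adjusted p of 0.83 with all 12 arrays and of 0.0323 with the 6 root arrays fitted alone. The root arrays alone gave 3 calls, against 14.2% of all: CDKB2-1 and CYCD4-2 (0.74) higher and CYCD5-2 lower. CYCD5-2 was also called with both F1 leaf arrays left out (adjusted p = 0.0438, against 8.07% of all called). Under median centring CYCD5-2 (-0.76) and RPA2B (-0.63) were called, against 7.33% of all. The F1 root results of CYCD5-2 are those of its first probe set alone. The second differed from the mid-parent by 0.06 (adjusted p = 0.977 by limma). It gave 454 and 427 in F1 root, within the 386 to 469 of the parental roots. The drying and abscisic acid genes had mean log2 signals of 13.39 and 13.47 in F1 root, against 6.96 to 7.90 in the parental roots, and their part in these values was not tested.

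Cell cycle genes outside the name rule were counted for comparison, from a list of 43 genes with 42 tested: other cyclins and CDKs, 2 retinoblastoma-related genes, SIAMESE-type inhibitors, the clamp loader RFC, a DNA polymerase, flap nucleases, H2B histones and the PCF transcription factors. In leaf 4 of 42 were higher in C bao and 0 lower, a share near the 7.46% of all probe sets that were higher. Without the F1 leaf arrays the counts were 14 and 0, against 12% of all higher. The 4 were the histone gene H2B.10 (2.54, adjusted p = 0.00468 by limma), the cyclin CYCP4-1 (3.67, adjusted p = 0.0423), CYCP2-1 (1.28, adjusted p = 0.0252) and the kinase CDKF-4 (1.06, adjusted p = 0.0213). Their median was 0.27, lower than that of the 45 genes, with a range from -0.64 to 3.95. RBR1, a retinoblastoma-related gene, gave 311 and 318 in C bao leaf, 1.21 and 64.1 in Jamaica leaf, 325 and 11.1 in F1 leaf and 104 to 246 in root, the pattern of the mitotic cyclins, with a difference of 3.15 that did not pass (adjusted p = 0.0643). In root 1 of 42 was higher in C bao, H2B.10 (1.996, adjusted p = 0.025), against 2.39% of all, and 0 were lower. H2B.10 gave 2343 and 2225 in C bao leaf, 420.0 and 344 in Jamaica leaf, 2678 and 1945 in C bao root and 465 and 674 in Jamaica root, so the parents did not overlap in either tissue.

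In F1 root 2 of the 42 were higher than the mid-parent, against 3.36% of all, and 0 were lower, against 1.69%. EL2, which encodes a SIAMESE-type protein that blocks CDK complexes, gave 2753 and 3073 in C bao root, 4007 and 3482 in Jamaica root and 13487 and 15110.3 in F1 root, with both F1 arrays far above all parental ones. It was higher than the mid-parent by 2.11 ± 0.290 (adjusted p = 0.00197 by limma), and its other probe set by 2.65 (adjusted p = 0.000576). PCF1, a TCP transcription factor first described as a binder of the PCNA promoter, was higher by 0.91 (adjusted p = 0.0466). Without the F1 leaf arrays 5 were higher, against 4.89% of all, and 1 lower, against 3.17%: EL2, PCF1, SMR1, H2B.10 and CDKG-1 higher and CYCP3-1 lower. SMR1, a second SIAMESE-type gene, gave 1054 and 883 in F1 root against 418 to 516 in the parental roots, a difference of 1.03 (adjusted p = 0.0577 with all 12 arrays). In F1 leaf EL2 gave 10007 and 10363, against 2575 to 6434 on the parental leaf arrays, and did not pass (1.12, adjusted p = 0.119). None of the 42 passed in F1 leaf, where 1.21% of all did. Promoter and protein sequences of these genes were not analysed here.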

How the data were processed

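Total RNA from 12 samples was extracted on RNeasy columns, labelled with biotin in a one-cycle protocol and hybridised to Affymetrix rice arrays, per the labels. The deposited table held intensity values on a linear scale between 0.1 and 57846, made with MAS5 per the submitters' processing notes. They were rescaled to a 2% trimmed mean of 500 per array, and 123 control probe sets were left out. Gene names came from the platform annotation, which ties 22436 probe sets to 1 gene. Symbols were updated through gene identifiers with an annotation of another assembly, used for names only, so no positions are given.

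Tests used limma 3.58.1 in R 4.3.3 on log2(signal + 16) of the deposited values: 1 mean for each of 6 groups, a spread pooled over groups (6 residual and 4.582 prior degrees of freedom), moderation with an intensity trend, and Benjamini-Hochberg adjustment within each comparison over the 42972 probe sets (75.0%) with a group mean above the 40th percentile of signal in at least 1 group. The code was tested on simulated data. Having 2 arrays a group limits the precision. Checks of scaling, pseudocount, filter, moderation, array weights, replicate numbers, arrays in the fit, threshold and 1 probe set a gene were planned; fitting the parental leaf arrays alone was added after seeing the data. Same-numbered arrays of different groups did not deviate together, with correlations of -0.168 to 0.0777 over 15 pairs of groups, so replicate numbers were not used to pair samples. Members, gene lists (other cell cycle genes, photosynthesis, shoot apex, growing leaf zone, inflorescence, root, drying and abscisic acid, senescence) and tests were chosen with earlier results of these data known. In each class the member of highest mean and the one with the largest parental leaf difference are given on all 12 arrays. The rule also names every member called in the parental root or F1 comparisons, where none was called with all 12 arrays. RPA2A, MCM3, CDKD-1 and the other genes described were named after their values were seen. The mean log2 signal of the inflorescence list was low on all arrays, at 5.47 to 6.42, though MADS16 and MADS2 had means above that range. Of its 7 tested genes 1 was higher in C bao in leaf, against 7.46% of all, and 1 in root, against 2.39%.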

Additional observations from a re-analysis of the deposited data

Results flagged for a closer look

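For CYCA2-1 the difference between leaf and root was not the same in the 2 parents, by a test of that difference itself: leaf minus root in C bao minus leaf minus root in Jamaica was 5.33 (log2, adjusted p = 0.0474 by limma). In C bao it gave 1081 and 1254 in leaf against 1081 and 679 in root. In Jamaica it gave 3.32 and 42.6 in leaf against 842 and 1161 in root. The test called 1 of the 53 probe sets, against 3.13% of all. That call was lost with a pseudocount of 1 or 64, no filter, no trend or robust moderation.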

How the results depend on the processing

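With 2 arrays a group, calls near the threshold moved between fits. In parental leaf 13 probe sets passed; the count was 8 with a pseudocount of 1, 9 with no filter, 6 with no trend, 7 with robust moderation, 25 with array weights, 29 with both F1 leaf arrays left out, 0 with each tissue fitted alone, 21 with the parental leaf arrays alone, 1 at an adjusted p of 0.01 and 1 to 29 with each array left out in turn. In parental root it was 1 with each tissue fitted alone, and 0 in every fit that left out an array. In F1 leaf it was 0 to 15 with each array left out, the other fits giving 0. In F1 root it was 2 with median centring, 1 with array weights, 1 with the F1 leaf arrays left out, 3 with each tissue alone and 0 to 1 with each array left out. For leaf against root 26 became 13 at an adjusted p of 0.01, 35 with the F1 leaf arrays left out and 15 to 34 with each array left out. For the contrast of tissue differences 1 became 0 with pseudocounts of 1 and 64, no filter, no trend, robust moderation, the replicate block and an adjusted p of 0.01, 12 with array weights, 25 with the F1 leaf arrays left out, and 0 to 25 with each array left out. With the replicate block, which has no basis in pairing here, the counts were 10, 0, 0, 0, 24 and 0 in the order of these comparisons. Of 1021 refits of single called probe sets 765 stayed past the threshold, 256 did not and 0 turned direction. Whether the F1 leaf arrays differ in stage, sampling or handling was not tested.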
